A study of Mus musculus with 35 samples.

Results

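The vascular and caveolar genes described here are 10 genes: the ligand gene Vegfa, the receptor genes Kdr, Flt1 and Tek, the co-receptor gene Eng, the surface and junction genes Pecam1, Cdh5 and Mcam, and the caveolin genes Cav1 and Cav2. They were picked by symbol in the deposited expression tables. All 10 were present in each of the 3 tables, out of 18930 genes listed in at least 1 table, and all 10 passed the filter on low values, a mean of at least 10 normalized counts. A normalized count is the number of reads on a gene divided by a factor for the sequencing depth of its library.

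VEGF-A, the product of Vegfa, is a secreted growth factor that binds the receptor tyrosine kinases VEGFR2 (Kdr), which passes the signal on, and VEGFR1 (Flt1), which binds the ligand tightly and signals weakly. Tek encodes TIE2, the receptor of the angiopoietins, and Eng encodes endoglin, a co-receptor for ligands of the TGF-beta and BMP family. Pecam1 and Cdh5 (VE-cadherin) sit at the contacts between endothelial cells, Mcam (CD146) is an adhesion molecule of endothelial and mural cells, and caveolin-1 and caveolin-2 (Cav1 and Cav2) build the coat of caveolae, the small pits of the plasma membrane. Endothelial cells use these genes together, but several of them are also used elsewhere: Pecam1 by pluripotent stem cells, Flt1 by the trophoblast and caveolins by many adherent cells.

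The study asked which functions of TET3, an enzyme that oxidizes 5-methylcytosine in DNA, need its catalytic activity and which do not. Mouse embryonic stem cells (V6.5 line, male, of mixed background) were differentiated to neuroectoderm by taking away LIF and adding 1 µM retinoic acid, for 72 h by the labels, and RNA was sequenced in 26 of the 35 samples of the series. The first experiment (day 3) compared wild type cells (Tet3+/+, n = 3), a catalytic mutant with substitutions in the iron-binding site (Tet3 m/m, n = 3) and a knockout with an exon removed (Tet3-/-, n = 2), each sample being a separately derived clone by the study's description. In the Dnmt1 experiment each genotype carried an empty vector (EV) or a vector for the maintenance methyltransferase DNMT1 with a myc tag, with drug selection (2 samples in each of 6 groups), and in the Tet3-CD experiment each genotype received EV or the catalytic domain of TET3 alone with an HA tag (Tet3-CD), with 1 sample in each of 6 groups. All samples share the parental line and the retinoic acid treatment. The labels give the same 72 h for the Tet3-CD experiment, but by the study's methods those cells were transfected during the differentiation and collected later than 72 h after its start.

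Libraries held 36594650 to 47710548 gene reads on day 3. For the Dnmt1 experiment the range was 31155842 to 50845950, and for the Tet3-CD experiment 33475041 to 37707719. The 3 tables were normalized separately, so tests were run within a table only. Tet3 itself was listed on day 3 at 4576 to 5020 normalized counts in wild type, 1945 to 2666 in the catalytic mutant and 1796 to 2329 in the knockout. The gap between wild type and knockout was smaller among the EV samples of the Dnmt1 experiment (2957 and 3075 against 2520 and 2571), where Tet3 m/m was at 964 and 1125. These values count reads over the whole gene and so do not measure the removed exon. Dnmt1 stood at 14679 and 15225 in Tet3+/+ with EV and at 22799 and 23768 with the Dnmt1 vector, and it was likewise above EV in Tet3 m/m (20245 and 23211 against 11285 and 11934) and in Tet3-/- (33380 and 39854 against 17356 and 17554). In the Tet3-CD experiment the Tet3 count went with the vector from 1850 to 5232 in Tet3 m/m, but only from 4755 to 5441 in Tet3+/+ and from 2070 to 2759 in Tet3-/-.

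Defining markers of endothelial cells were in part absent. Emcn and Icam2, genes of the endothelial surface, and Ptprc, a blood cell gene, were in none of the 3 tables, and Cldn5, of the endothelial tight junction, reached at most 95.4 normalized counts on day 3 and was not in the table of the Tet3-CD experiment. Others of this list were measured: Tie1, an endothelial receptor gene, ranged from 121 to 311 on day 3, Cd34 from 77.1 to 200, Esam from 45.5 to 97.9 and Robo4 from 6.83 to 115. Over the 16 measured non-members of 18 on the endothelial surface and junction list, the summed level on day 3 was 1965 to 2158 in wild type, 2262 to 3091 in the catalytic mutant and 2134 to 2180 in the knockout. Nes, an intermediate filament gene of neural progenitors, ranged from 6667 to 21181 on day 3, and Pax6, a neuroectoderm transcription factor gene, from 880 to 2063. Gata4, a gene of the extraembryonic endoderm, was also present (442 to 2467), as was Pou5f1, a gene of pluripotent cells (543 to 2743). In bulk RNA, fewer cells of a type and less RNA per cell cannot be told apart.

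Per kilobase of exon, Vegfa was by far the most abundant member in wild type cells on day 3, at 1335 normalized counts per kilobase (range 1125 to 1519, n = 3). Mcam followed at 674 (524 to 766), Eng at 212 (175 to 262) and Cdh5 at 90.0 (76.9 to 99.2), and none of these 4 ranges met the next. Flt1 (52.1), Pecam1 (48.3), Tek (44.1) and Kdr (25.5) followed, and of these only Flt1 and Kdr did not overlap. The caveolin genes had the lowest means, with Cav1 at 19.1 (9.22 to 26.9), a range that met those of Kdr and Cav2, and Cav2 at 9.48 (5.04 to 12.1). The order was not the same in the other cultures. In the single EV wild type library of the Tet3-CD experiment Flt1 stood at 441 normalized counts per kilobase, behind Vegfa (1398) and Mcam (528) alone, and Cdh5 at 16.3, above Cav2 (8.33) alone.

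**Figure D1:**
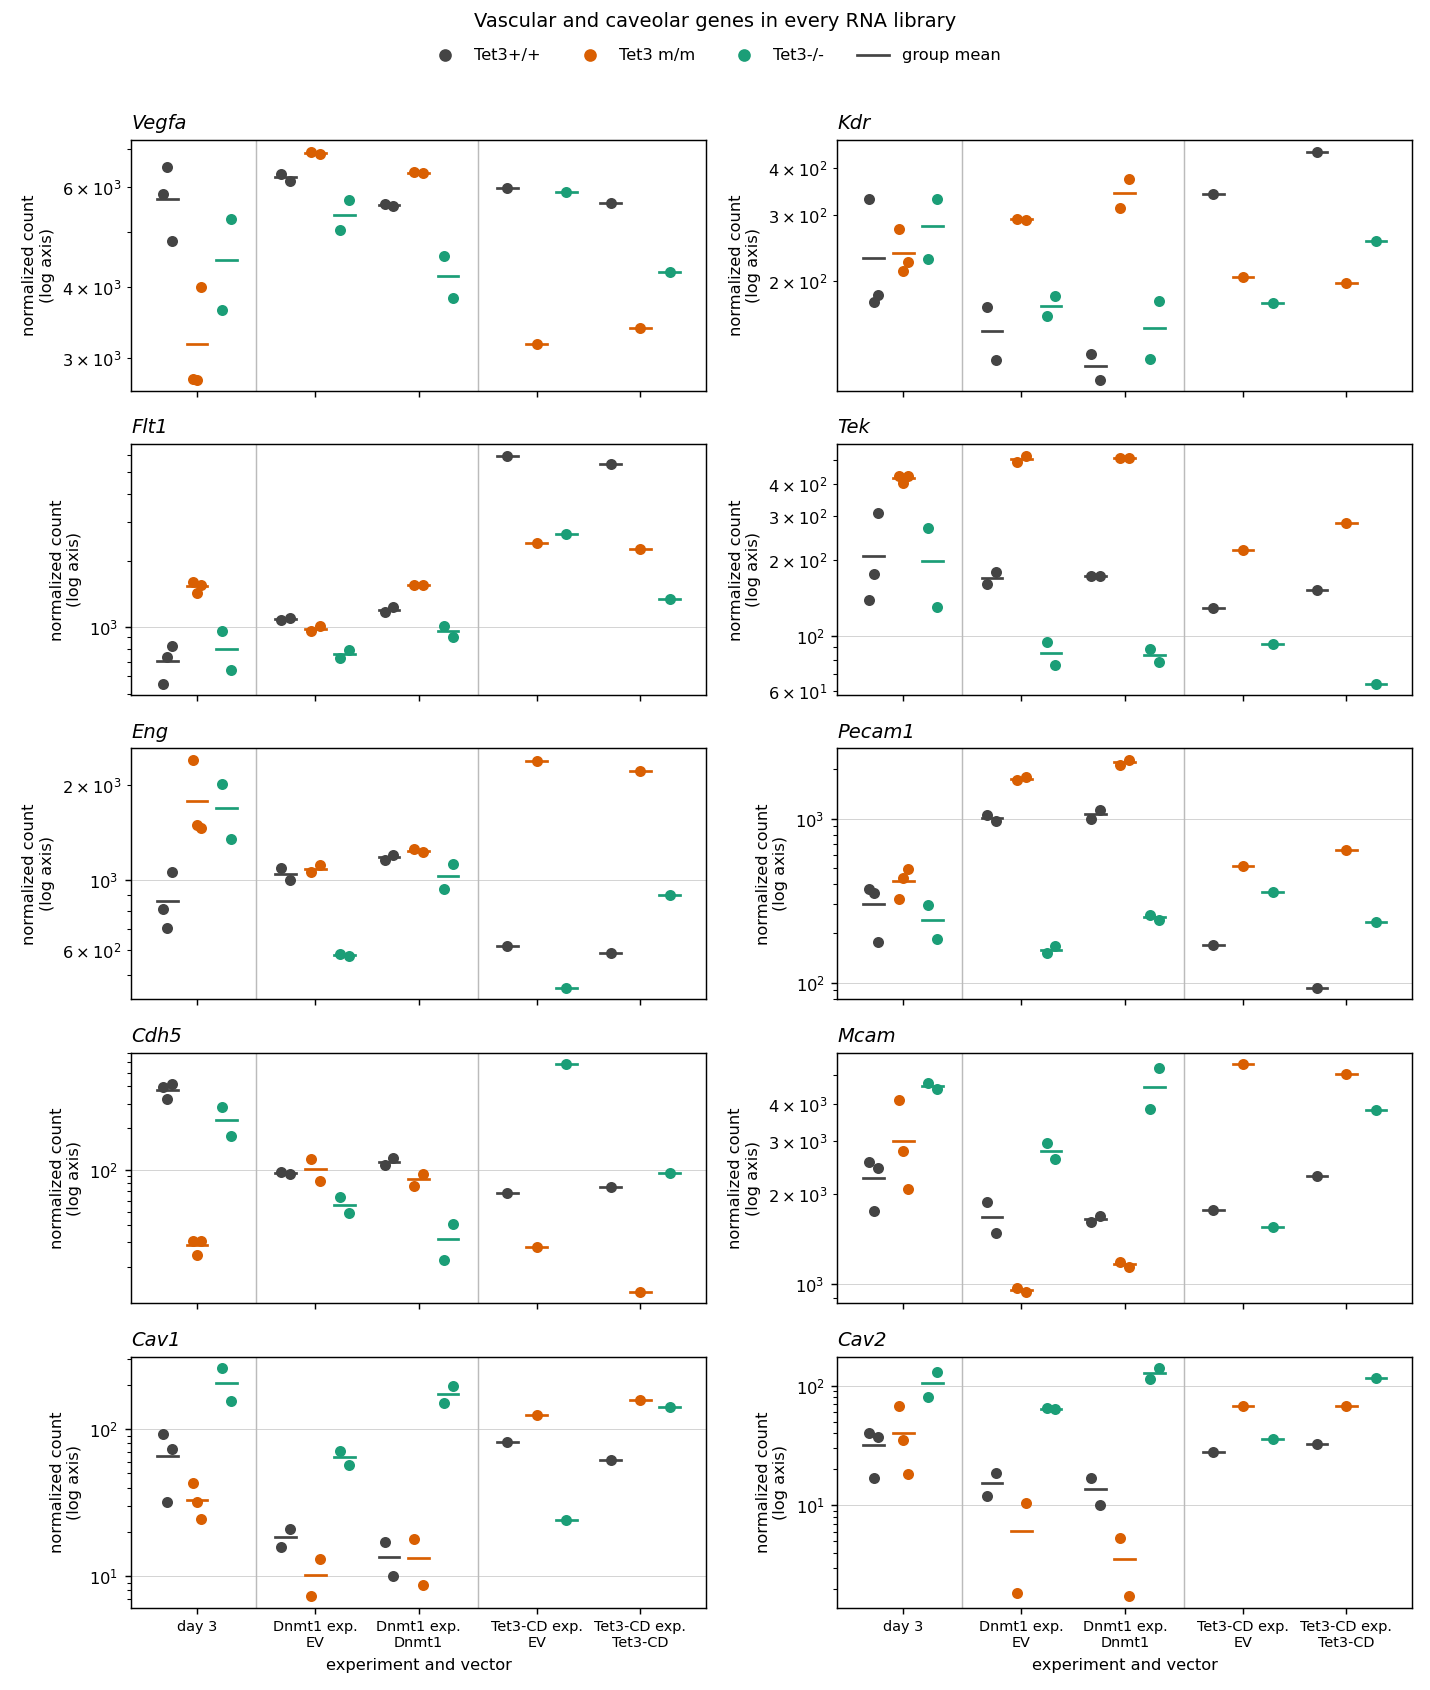
Normalized counts (vertical log axes, each with its own range) of the 10 genes in all 26 RNA libraries, by experiment and vector along the horizontal axis and by genotype in color, with 1 point for each library and a bar at each group mean. Tek was highest in Tet3 m/m in every experiment, whereas Mcam, Eng and Cdh5 change their order of genotypes from one experiment to the next.

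The first question was how the catalytic mutant, in which the Tet3 count was also lower, differs from wild type in these genes. On day 3, 5 of the 10 genes differed between Tet3 m/m and Tet3+/+ by limma (adjusted p under 0.05 over 17915 genes and more than 1.5-fold), where 10.2% of all genes did so. The receptor genes Flt1 and Tek and the co-receptor gene Eng rose about equally, while Vegfa and Cdh5 fell. The median log2 fold change of all genes was 0.00.

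Vegfa was at 5831, 6510 and 4820 normalized counts in the 3 wild type clones and at 2760, 2750 and 4009 in the 3 Tet3 m/m clones. Every mutant clone was below every wild type clone, a log2 fold change of -0.86 (SE 0.18, limma adjusted p = 0.0108) or 1.82-fold lower. In the knockout clones Vegfa was at 3650 and 5276, overlapping both other genotypes.

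The sequences just before the start sites of the 3 genes that rose together in Tet3 m/m on day 3 are shown for their content of CG, the dinucleotide that DNMT1 methylates and TET3 acts on. Each is the 250 bases before the annotated start of RefSeq (GRCm38.p6, the gene's own strand), 5′ to 3′, with every CG in capitals. They differ widely: Flt1 (chr5:147726012-147726261, minus strand) holds 23, Eng (chr2:32646345-32646594, plus strand) 4 and Tek (chr4:94739039-94739288, plus strand) 2. Of all 32851 such windows in the table, 13.3% hold at least as many as Flt1, 62.2% at least as many as Eng and 81.2% at least as many as Tek, and the median window holds 6. CG reads the same on both strands, and the methylation data of the series were not used here.
Flt1: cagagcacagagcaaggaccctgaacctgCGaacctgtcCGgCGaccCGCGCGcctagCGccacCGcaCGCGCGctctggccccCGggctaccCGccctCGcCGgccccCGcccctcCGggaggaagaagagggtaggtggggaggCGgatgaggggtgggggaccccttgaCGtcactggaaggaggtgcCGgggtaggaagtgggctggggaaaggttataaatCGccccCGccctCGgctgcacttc
Eng: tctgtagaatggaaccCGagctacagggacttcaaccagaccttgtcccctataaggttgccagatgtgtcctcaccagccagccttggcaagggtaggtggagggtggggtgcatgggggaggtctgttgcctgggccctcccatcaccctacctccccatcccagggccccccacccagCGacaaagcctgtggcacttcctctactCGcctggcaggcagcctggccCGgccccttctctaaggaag
Tek: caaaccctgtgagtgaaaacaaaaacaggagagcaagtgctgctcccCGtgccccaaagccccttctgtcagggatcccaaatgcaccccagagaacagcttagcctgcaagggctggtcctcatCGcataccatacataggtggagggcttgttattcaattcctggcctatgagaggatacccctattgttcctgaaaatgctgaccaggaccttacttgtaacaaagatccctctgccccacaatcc

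Flt1 stood at 555, 730 and 824 normalized counts in the wild type clones and at 1604, 1433 and 1555 in Tet3 m/m on day 3. The 3 mutant clones were close to each other and all well above wild type, 2.20-fold on average (log2 fold change 1.14, SE 0.18, limma adjusted p = 0.00243). The knockout clones, at 960 and 640, overlapped wild type, and the knockout was below the catalytic mutant (log2 fold change -0.96, SE 0.20, limma adjusted p = 0.0117).

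Tek was at 139, 176 and 308 in wild type and at 432, 404 and 433 in Tet3 m/m on day 3. The mutant clones hardly varied, while the wild type clones and the knockout clones (267 and 130) spread widely. The fit pools the spread of all 3 genotypes, which set the precision of the difference (log2 fold change 1.11, SE 0.32, limma adjusted p = 0.0418). That call was the least firm of the 5: leaving out wild type clone 1 or 2 or any mutant clone gave adjusted p of 0.0778 to 0.151 by limma, and edgeR gave 0.054. Tek was nevertheless the only member that was higher in Tet3 m/m than in Tet3+/+ beyond the fold threshold in each of the 3 experiments.

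Eng was at 809, 707 and 1059 in wild type, 2400, 1489 and 1459 in the catalytic mutant and 2019 and 1349 in the knockout on day 3. Both mutant genotypes lay above all wild type clones. The difference was called for Tet3 m/m (log2 fold change 1.03, SE 0.22, limma adjusted p = 0.0126) and not for Tet3-/- (0.96, SE 0.25, adjusted p = 0.0773), and without wild type clone 2 the adjusted p for Tet3 m/m was 0.0541 by limma.

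Cdh5 made the largest difference of all members. It was at 395, 323 and 417 normalized counts in wild type and at 30.7, 24.4 and 30.5 in Tet3 m/m, 12.8-fold lower (log2 fold change -3.68, SE 0.25, limma adjusted p = 5.96e-05). The knockout clones were at 284 and 175, below all wild type clones (log2 fold change -0.75, SE 0.28, limma adjusted p = 0.172) and 7.62-fold above Tet3 m/m (log2 fold change 2.93, SE 0.28, limma adjusted p = 0.000396).

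Cdh5 lies on chromosome 8, whose 916 measured genes had medians of -0.38, -0.34 and -0.29 on the log2 scale against the wild type mean in the 3 Tet3 m/m clones and of 0.18 and -0.31 in the 2 knockout clones, beside 0.00 to 0.01 for all genes. The 20 genes nearest to Cdh5 had a median log2 difference of -0.38 between Tet3 m/m and Tet3+/+ on day 3, with 17 of the 20 lower. Cdh5 itself was thus far lower than its neighbours in Tet3 m/m, and the part of this chromosome-wide shift in its value was not tested.

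The other 5 members were not called in Tet3 m/m on day 3. Kdr was nearly level (275, 212 and 224 against 332, 176 and 183 in wild type, log2 fold change 0.10, 95% interval -0.49 to 0.68), and for Pecam1 (0.53, -0.14 to 1.19), Mcam (0.37, -0.12 to 0.86), Cav1 (-0.87, -1.81 to 0.07) and Cav2 (0.25, -0.88 to 1.39) the intervals include changes of more than 1.5-fold.

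**Figure D2:**
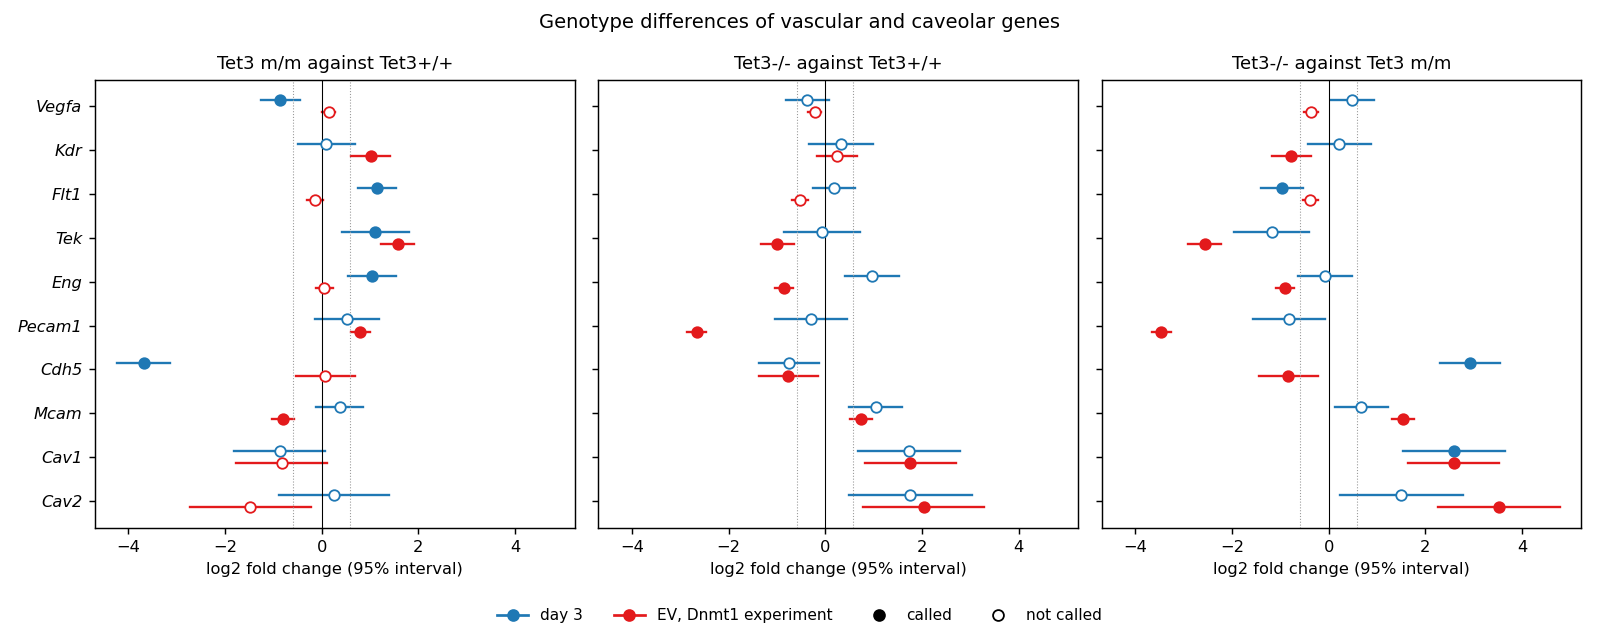
Log2 fold changes (horizontal axes) of the 10 genes for the 3 genotype comparisons on day 3 and with EV in the Dnmt1 experiment, with points for the estimates, lines for 95% intervals, filled points for called genes and dotted lines at 1.5-fold. Cav1, Cav2 and Mcam lie to the right in Tet3-/- in both experiments, while Eng lies on opposite sides.

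The second question was what happens when the whole protein is lost. On day 3, 0 of the 10 genes were called between Tet3-/- and Tet3+/+ by limma, where 0.642% of all genes were and 3608 genes had an unadjusted p under 0.05. By edgeR none was called either. DESeq2 called 4 members, Mcam, Cav1, Cav2 and Eng, all higher in the knockout, where it called 5.11% of all genes. In a limma fit of the wild type and knockout samples alone, which called 3.71% of all genes, Mcam (adjusted p = 0.017) and Eng (0.0355) were called. In the fit of all 3 genotypes, leaving out Tet3 m/m clone 1 gave calls of Mcam (limma adjusted p = 0.0168) and Eng (0.0254), and leaving out Tet3 m/m clone 3 a call of Mcam (0.0214).

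Mcam was at 2567, 1757 and 2451 normalized counts in wild type and at 4715 and 4480 in Tet3-/- on day 3. Both knockout clones were above every wild type clone (log2 fold change 1.04, SE 0.25, limma adjusted p = 0.0671). The same held for Cav1, at 92.5, 31.8 and 73.1 in wild type against 260 and 155 in Tet3-/- (log2 fold change 1.72, SE 0.48, limma adjusted p = 0.0869).

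Cav2 was at 40.5, 16.8 and 37.6 against 80.6 and 130, also without overlap (log2 fold change 1.76, SE 0.58, limma adjusted p = 0.131). Such a separation of groups is common with 2 samples against 3, and 41.2% of all genes showed it on day 3. Against Tet3 m/m instead of wild type, Cav1 was higher in the knockout with a call (6.05-fold, log2 fold change 2.60, SE 0.48, limma adjusted p = 0.00679), as was Cdh5, while Flt1 was lower, and these made 3 of 10 members where 9.73% of all genes were called. Leaving out knockout clone 1 raised the adjusted p of Cav1 to 0.0585, and leaving out knockout clone 2 raised that of Flt1 to 0.08.

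The EV samples of the Dnmt1 experiment repeat the genotype comparisons in other cultures. Among them 7 of the 10 members were called between Tet3-/- and Tet3+/+, where 24.9% of all genes were. The caveolin genes and Mcam rose, and Pecam1, Cdh5, Tek and Eng fell. Replicates were close together here, with both groups apart for 77.1% of all genes, and nothing in the labels says that they came from separate clones, so these p-values may measure technical spread.

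Cav1 was at 15.8 and 20.9 normalized counts in Tet3+/+ with EV and at 71.5 and 57.1 in Tet3-/- (3.38-fold higher, log2 fold change 1.76, SE 0.45, limma adjusted p = 0.0024). Cav2 was at 11.9 and 18.6 against 65.0 and 63.5 (4.11-fold higher, log2 fold change 2.04, SE 0.60, limma adjusted p = 0.00706). Mcam was at 1881 and 1482 against 2972 and 2614 (1.67-fold higher, log2 fold change 0.74, SE 0.11, limma adjusted p = 9.13e-06). These 3 genes stood on the same side in the knockout on day 3 and with EV, though called by limma with EV only. With EV, leaving out the first wild type column raised the adjusted p of Cav2 to 0.0642, and leaving out the second lowered the log2 fold change of Mcam to 0.57, under the fold threshold.

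Mcam, Cav1 and Cav2 also moved together over the 15 group means of genotype and vector, with Pearson correlations of 0.88 for Mcam and Cav1, 0.87 for Mcam and Cav2 and 0.87 for both caveolins (log2 values centred within each experiment; a description over groups that share libraries). Their windows before the start site are given for the same reason as above and marked in the same way. Mcam (chr9:44134408-44134657, plus strand) holds 25 CG, a number that 10.7% of all windows reach, and Cav2 (chr6:17280935-17281184, plus strand) holds 10. The 2 windows of Cav1 (chr6:17306085-17306334 and chr6:17307390-17307639, plus strand) hold 10 and 12, so Cav1 and Cav2, which are neighbours on chromosome 6, are alike in this count.
Mcam: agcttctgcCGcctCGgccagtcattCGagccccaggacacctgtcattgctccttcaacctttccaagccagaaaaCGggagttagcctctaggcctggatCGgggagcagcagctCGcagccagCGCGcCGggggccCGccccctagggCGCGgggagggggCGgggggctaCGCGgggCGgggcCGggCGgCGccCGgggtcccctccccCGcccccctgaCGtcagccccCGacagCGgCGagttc
Cav2: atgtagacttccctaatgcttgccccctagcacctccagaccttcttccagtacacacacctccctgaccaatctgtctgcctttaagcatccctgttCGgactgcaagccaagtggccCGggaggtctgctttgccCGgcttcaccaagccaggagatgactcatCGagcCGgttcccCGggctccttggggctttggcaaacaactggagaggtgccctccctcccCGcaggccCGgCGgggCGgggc
Cav1, first window: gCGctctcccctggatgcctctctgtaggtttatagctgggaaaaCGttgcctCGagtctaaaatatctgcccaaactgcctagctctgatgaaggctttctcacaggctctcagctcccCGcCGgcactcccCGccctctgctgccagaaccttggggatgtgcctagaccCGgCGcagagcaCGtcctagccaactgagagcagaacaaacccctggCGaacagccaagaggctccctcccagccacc
Cav1, second window: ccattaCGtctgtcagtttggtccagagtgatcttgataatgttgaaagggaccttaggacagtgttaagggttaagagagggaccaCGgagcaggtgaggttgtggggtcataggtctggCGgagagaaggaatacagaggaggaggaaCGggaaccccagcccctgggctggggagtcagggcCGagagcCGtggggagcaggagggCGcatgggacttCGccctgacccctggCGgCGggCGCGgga

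Tet3 is also on chromosome 6, and its 20 nearest genes were mostly lower in Tet3 m/m than in Tet3+/+. Their median log2 difference was -0.86 on day 3 (19 of 20 lower) and -0.75 with EV (17 of 20 lower), beside -1.05 and -1.53 for Tet3. The 842 measured genes of this chromosome had a median log2 difference of -0.26 and -0.25 from wild type in the 2 Tet3 m/m samples with EV and of 0.06 in both Tet3-/- samples. The 19 genes nearest to Cav1 had a median of 0.62 between Tet3-/- and Tet3+/+ with EV and of 0.17 on day 3, below the values of Cav1 itself (1.76 and 1.72). Between Tet3-/- and Tet3 m/m on day 3, where Cav1 was at 2.60, their median was 0.70, with 14 of 19 higher. Between Tet3 m/m and Tet3+/+ on day 3 it was -0.54, with 15 of 19 lower, and Cav1 was at -0.87. Whether the surroundings have a part in the values of the caveolin genes or of Tet3 was not tested.

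**Figure D3:**
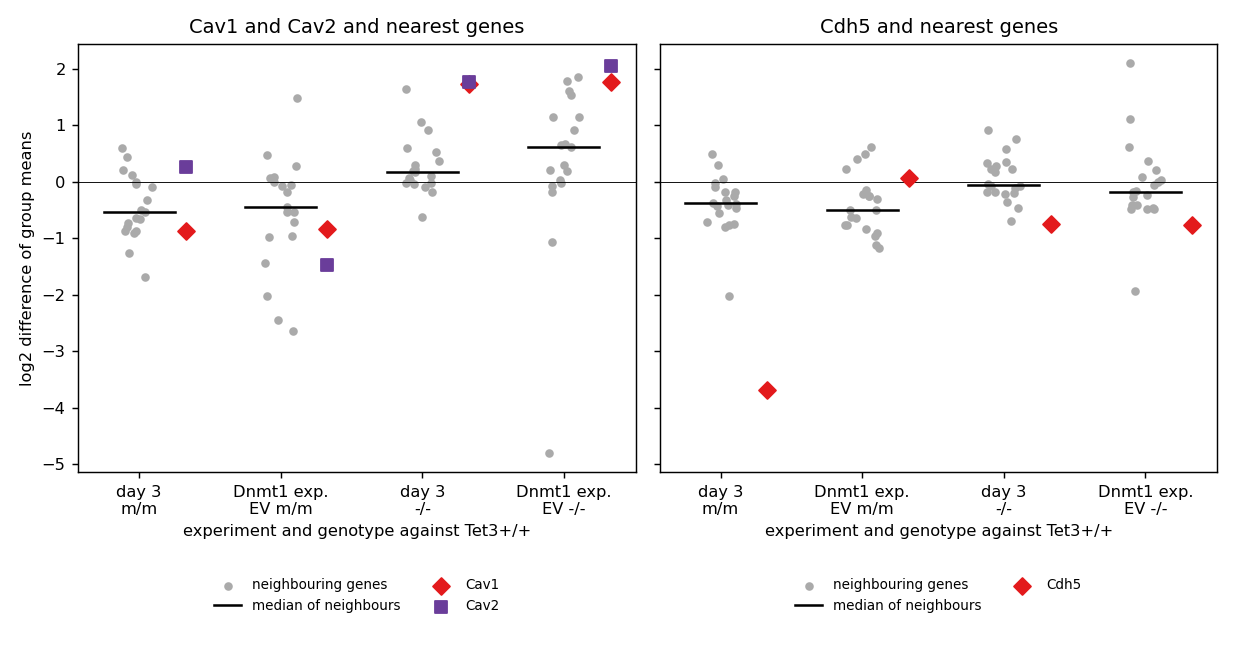
Log2 differences of group means (vertical axis) against Tet3+/+ for Cav1 and Cav2 with the measured genes nearest to Cav1 (left), and for Cdh5 with its nearest measured genes (right), in 4 comparisons along the horizontal axis; gray points are neighbouring genes and black bars their medians. In Tet3 m/m on day 3 Cdh5 (-3.68) lies below all 20 of its neighbours, and the median of the neighbours of Cav1 is below 0 in both Tet3 m/m comparisons.

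Pecam1 fell most with EV, from 1056 and 962 in Tet3+/+ to 151 and 167 in Tet3-/- (6.31-fold, log2 fold change -2.66, SE 0.09, limma adjusted p = 2.64e-15). The catalytic mutant samples were at 1715 and 1802, above wild type (1.74-fold, log2 fold change 0.80, SE 0.09, limma adjusted p = 3.61e-07). The same order was seen in the summed level of the 10 genes listed as markers of pluripotent cells, at 43058 and 43214 in wild type, 111949 and 113724 in the catalytic mutant and 6689 and 7243 in the knockout, and the genes most like Pecam1 over the 15 group means were Nanog and Pou5f1, core transcription factor genes of pluripotency (Pearson r = 0.99 for both, among 16812 genes). On day 3 Pecam1 was at 372, 353 and 177 in wild type, 323, 435 and 497 in the catalytic mutant and 296 and 184 in the knockout, with overlapping groups, and the pluripotency sum was 7985 to 12795, 11124 to 28033 and 6539 to 11425. How far Pecam1 counts remaining pluripotent cells was not tested.

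Tek with EV was at 160 and 179 in wild type, 491 and 520 in the catalytic mutant and 94.2 and 76.2 in the knockout. The catalytic mutant was 2.98-fold above wild type (log2 fold change 1.57, SE 0.16, limma adjusted p = 5.54e-08), and the knockout was 1.98-fold below (log2 fold change -0.99, SE 0.16, limma adjusted p = 2.86e-05). The extraembryonic endoderm markers had the same order, with a summed level of 283880 and 294653, 660783 and 737964, and 122151 and 125467 over 17 genes. In the other experiments the order was not shared. On day 3 the sums overlapped (101345 to 136730 in wild type and 115766 to 163242 in the catalytic mutant, 16 genes), and with EV in the Tet3-CD experiment the sum was 1116037 in wild type and 237704 in the catalytic mutant while Tek was at 129 and 219. The part of these cells in the Tek values was not tested.

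With EV, wild type samples had Eng at 1094 and 1004, catalytic mutant samples at 1063 and 1112 and knockout samples at 585 and 577. The catalytic mutant overlapped wild type (log2 fold change 0.05, 95% interval -0.12 to 0.23), and the knockout was lower (log2 fold change -0.85, SE 0.09, limma adjusted p = 3.8e-08). Averaged over both vectors the log2 fold change of the knockout was -0.52, under the fold threshold. On day 3 both mutant genotypes lay above wild type.

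With EV, Cdh5 was at 96.8 and 92.8 in wild type, 119 and 83.3 in the catalytic mutant and 63.3 and 48.7 in the knockout. The strong reduction of day 3 in Tet3 m/m was thus not seen (log2 fold change 0.07, 95% interval -0.54 to 0.68). Chromosome 8 was at -0.44 in both catalytic mutant samples and at -0.35 and -0.37 in the knockout samples, beside 0.01 for all genes. The part of this shift in the Cdh5 values of either genotype was not tested. The knockout was 1.69-fold lower (log2 fold change -0.76, SE 0.29, limma adjusted p = 0.0346), a call lost when either wild type column was left out (limma adjusted p of 0.0942 and 0.122) or knockout replicate 2 (0.204).

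The EV samples had Kdr at 170 and 123 in wild type, at 292 and 292 in the catalytic mutant and at 161 and 182 in the knockout. It rose in the catalytic mutant (2.01-fold, log2 fold change 1.01, SE 0.20, limma adjusted p = 0.000223), one of 4 members called between Tet3 m/m and Tet3+/+ with EV, where 21.2% of all genes were. Beside Kdr, Pecam1 and Tek these included Mcam, which fell from 1881 and 1482 to 972 and 940 (1.75-fold, log2 fold change -0.80, SE 0.11, limma adjusted p = 3.36e-06).

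Flt1 and Vegfa varied least with EV. Flt1 was at 1077 and 1099 in wild type, 963 and 1008 in the catalytic mutant and 726 and 792 in the knockout, and Vegfa, in the same order, at 6328 and 6162, 6931 and 6866, and 5054 and 5687. In the knockout both passed the adjusted p but not the fold threshold (log2 fold change -0.52, limma adjusted p = 9.83e-06 for Flt1, and -0.22, 0.006 for Vegfa). In the catalytic mutant neither was called (-0.14, 95% interval -0.31 to 0.02 for Flt1, and 0.14, 0.01 to 0.28 for Vegfa), and both estimates had the opposite sign from day 3.

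Between both mutant genotypes with EV, 8 of the 10 members were called, where 39.6% of all genes were. Mcam (log2 fold change 1.54), Cav1 (2.59) and Cav2 (3.52) were higher in Tet3-/- than in Tet3 m/m. Lower in the knockout were Pecam1 (-3.46), Tek (-2.56), Eng (-0.90), Cdh5 (-0.83) and Kdr (-0.77). The call of Cdh5 was lost without Tet3 m/m replicate 1 (limma adjusted p = 0.173) or knockout replicate 2 (limma adjusted p = 0.128), and Eng was under the fold threshold when averaged over both vectors (-0.58). Mcam, Pecam1 and Tek were called against wild type in both genotypes with EV, and each stood on opposite sides of it in the knockout and in the catalytic mutant. Cav1 in Tet3 m/m (7.31 and 13, log2 fold change -0.83, limma adjusted p = 0.145) and Cav2 (1.83 and 10.4, log2 fold change -1.48, limma adjusted p = 0.0505) rest on few reads.

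The wider lists of the same pathways, which hold the members too, were counted in the same fits. Their counts are to be read beside the share of all genes called, which was 10.2% in Tet3 m/m and 0.642% in Tet3-/- on day 3 and 21.2% and 24.9% with EV. Of 20 measured genes of the endothelial surface and junction, 12 fell and 3 rose in Tet3-/- with EV (median log2 fold change -0.85, beside 0.00 for all genes), among them Tie1 (-2.96), the partner receptor of TIE2, and Plvap (-1.60), of endothelial diaphragms. In Tet3 m/m with EV, 9 of these 20 rose and 2 fell (median 0.81), Mmrn2 (1.71), of the endothelial matrix, among the former. On day 3, 2 rose and 3 fell in Tet3 m/m, the latter including Cd93 (-3.53) and Cldn5 (-2.06) beside Cdh5, and 0 were called in Tet3-/-.

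The caveolar coat list holds Cav1, Cav2 and the genes of their partners. Of 11 measured genes, 6 rose and 0 fell in Tet3-/- with EV (median log2 fold change 0.97), including Cavin1 (1.60, limma adjusted p = 1.26e-15), which encodes the main partner of caveolin-1 in the coat, and Ehd2 (1.78, limma adjusted p = 3.15e-13), of the caveolar neck. Cavin1 (-1.29) and Ehd2 (-1.25) fell in Tet3 m/m with EV, with 3 of 11 lower and 1 higher. On day 3 none of the 11 was called in either genotype by limma (medians 0.07 and 0.73).

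The mural cell list holds genes of smooth muscle and pericytes together with Mcam. With EV, 6 of 11 rose and 0 fell in Tet3-/- and 1 rose and 8 fell in Tet3 m/m, with the contractile genes Acta2 (2.44 and -2.68), Tagln (1.54 and -2.58) and Cnn1 (1.70 and -2.02) on opposite sides of wild type. The summed level of the 10 measured non-members was 26851 and 28149 in wild type, 11275 and 11461 in the catalytic mutant and 74834 and 79440 in the knockout with EV, and 28570 to 55853, 38243 to 79221 and 127458 to 140378 on day 3. The gene most like Mcam over the 15 group means was Dstn, an actin depolymerizing factor gene, followed by Ilk, a kinase gene of cell adhesion (Pearson r = 0.99 and 0.98).

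Of the endothelial transcription factor genes, 9 of 16 fell and 4 rose in Tet3-/- with EV (24.9% of all genes called), Sox7 (-3.12) and Sox18 (-2.74) falling and Ets1 (1.16) and Nr2f2 (0.90) rising. Sox7 is also on the extraembryonic endoderm list. The sum of that list was 122151 and 125467 in Tet3-/- against 283880 and 294653 in Tet3+/+ with EV. The part of these cells in the Sox7 value was not tested. In Tet3 m/m 4 rose and 2 fell on day 3, including Sox18 (1.76), Hhex (1.09) and Hey1 (-1.23), and 5 rose and 4 fell with EV (10.2% and 21.2% of all genes called). Ets1 was the only gene of the pathway lists called in Tet3-/- on day 3 (log2 fold change 1.20, limma adjusted p = 0.0464).

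The remaining lists were mixed, and several of their counts were near the share of all genes. Of the 10 VEGF ligand and receptor genes, 2 rose and 1 fell in Tet3 m/m on day 3 (10.2% of all genes called), Flt4 (0.95), the receptor of the lymphatic ligands, joining Flt1. In the EV samples 2 rose and 2 fell in Tet3 m/m (21.2% of all genes called), and 2 rose and 1 fell in Tet3-/- (24.9% of all genes called), where Nrp1 (1.09), a VEGF co-receptor gene, rose and Flt4 (-1.26) fell. Among the 7 genes of the angiopoietin and Tie list, the ligand gene Angpt1 fell in Tet3 m/m (-1.57 on day 3 and -2.36 with EV) and rose in Tet3-/- with EV (2.37). The receptor gene Tek went the other way in each, rising in Tet3 m/m (1.11 and 1.57) and falling in Tet3-/- with EV (-0.99). Of 17 endoglin and TGF-beta receptor genes, 2 rose and 1 fell in Tet3 m/m on day 3, 2 rose and 3 fell with EV, and 3 rose and 2 fell in Tet3-/- with EV, Tgfb2 (1.57) and Tgfbr2 (1.28) among those that rose, beside 10.2%, 21.2% and 24.9% of all genes called.

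The third question was how added DNMT1 bears on these genes in each genotype. In Tet3+/+, 0 of the 10 members were called between the Dnmt1 vector and EV, where 1.17% of all genes were and 3592 genes had an unadjusted p under 0.05, and neither edgeR nor DESeq2 called a member. Flt1 alone was called in Tet3 m/m, where 2.46% of all genes were. In Tet3-/-, 4 members rose and 0 fell, where 3.53% of all genes were called and 2.51% rose.

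Eng in Tet3-/- was at 585 and 577 normalized counts with EV and at 940 and 1126 with Dnmt1, a rise of 1.77-fold (log2 fold change 0.82, SE 0.09, limma adjusted p = 2.08e-06). In Tet3+/+ it was at 1094 and 1004 against 1159 and 1202 (log2 fold change 0.17, 95% interval -0.01 to 0.35). The Dnmt1 effect was larger in the knockout than in wild type by 0.65 on the log2 scale (SE 0.12, limma adjusted p = 0.00143 for the interaction). With the vector, the Dnmt1 count was also higher in the knockout (33380 and 39854) than in wild type (22799 and 23768). The part of this level in the Tet3-/- interactions of any member was not tested. Without knockout replicate 2 with Dnmt1 the interaction was 0.52, under the fold threshold.

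Mcam in Tet3-/- was at 2972 and 2614 with EV and at 3860 and 5281 with Dnmt1 (1.62-fold, log2 fold change 0.70, SE 0.11, limma adjusted p = 0.000212), while in Tet3+/+ it was at 1881 and 1482 against 1612 and 1691 (log2 fold change -0.02, 95% interval -0.25 to 0.21). The effects differed by 0.71 (SE 0.16, limma adjusted p = 0.00555 for the interaction). Without knockout replicate 2 with Dnmt1 the Mcam effect in the knockout was 0.47 and the interaction 0.49, both under the fold threshold, and without the first wild type column with EV the interaction was 0.54.

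Pecam1 in Tet3-/- was at 151 and 167 with EV and at 260 and 240 with Dnmt1 (1.57-fold, log2 fold change 0.65, SE 0.09, limma adjusted p = 7.83e-05), still far below the 1003 and 1135 of Tet3+/+ with Dnmt1. The pluripotency marker sum of the knockout went along, from 6689 and 7243 to 10150 and 10389. The interaction was 0.57 (limma adjusted p = 0.00847), just under the fold threshold, and without knockout replicate 1 with EV the effect in the knockout was 0.58, also under it. Whether remaining pluripotent cells have a part in the Pecam1 values was not tested.

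Cav1 in Tet3-/- was at 71.5 and 57.1 with EV and at 150 and 196 with Dnmt1 (2.66-fold, log2 fold change 1.41, SE 0.45, limma adjusted p = 0.0419). This call was lost when any of the 4 knockout libraries was left out (adjusted p of 0.0585 to 0.266), and the interaction was not called by limma (1.85, SE 0.64, adjusted p = 0.0738) but was by edgeR (adjusted p = 0.0408) and DESeq2 (adjusted p = 0.0321). Cav2 was at 65.0 and 63.5 against 114 and 140 and was not called (log2 fold change 0.97, 95% interval -0.29 to 2.22).

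Flt1 in Tet3 m/m was at 963 and 1008 with EV and at 1555 and 1553 with Dnmt1 (1.58-fold, log2 fold change 0.66, SE 0.08, limma adjusted p = 7.36e-06). The interaction against wild type was 0.52 (SE 0.11, limma adjusted p = 0.0166), under the fold threshold. Of the interactions, 0 of 10 were called for Tet3 m/m by limma (0.604% of all genes, 1963 genes with an unadjusted p under 0.05, and 0 by edgeR and DESeq2) and 2 of 10 for Tet3-/- (3.99% of all genes), namely Eng and Mcam. The remaining members had smaller or less certain effects, and Vegfa in Tet3-/- passed the adjusted p alone (5054 and 5687 against 4531 and 3835, log2 fold change -0.36, limma adjusted p = 0.000551). Cdh5 in Tet3-/- was at 63.3 and 48.7 with EV and at 22.5 and 40.5 with Dnmt1, without a call (log2 fold change -0.86, limma adjusted p = 0.0589). Its samples did not overlap, as was so for 52.0% of all genes in this comparison.

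**Figure D4:**
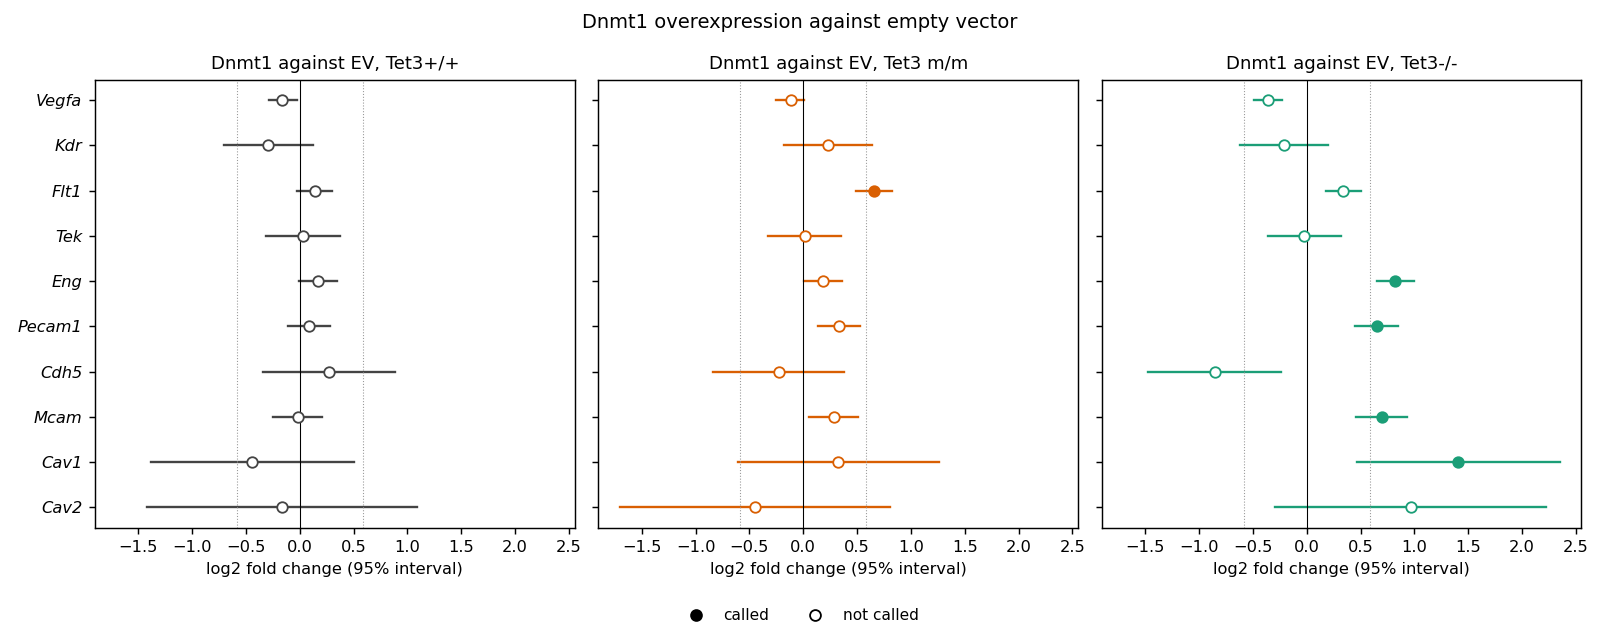
Log2 fold changes of the 10 genes between the Dnmt1 vector and EV (horizontal axes) in each genotype, with points for the estimates, lines for 95% intervals, filled points for called genes and dotted lines at 1.5-fold. The points of Eng, Pecam1, Mcam and Cav1 are called in Tet3-/-, Flt1 in Tet3 m/m and no gene in Tet3+/+.

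Of the 11 mural cell genes (Mcam among them), 5 rose and 0 fell in Tet3-/- given Dnmt1 (median log2 fold change 0.69, where 2.51% of all genes rose and 1.02% fell), with Acta2 at 0.99 and Cnn1 at 1.03. Of the caveolar coat genes 2 of 11 rose, Cav1 and Cavin3 (0.90). Of the 20 endothelial surface and junction genes, 2 rose and 1 fell. In Tet3+/+ 2 of the mural cell genes rose, none of the caveolar coat genes was called, and of the surface and junction genes Tie1 alone was called, falling (-0.86), where 1.17% of all genes were called.

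The fourth question was whether the catalytic domain of TET3 changes these genes. With 1 library for each genotype and vector there is no replicate check and no test of the vector within a genotype. A vector effect common to the genotypes was not fitted. The intervals given cover counting error of the reads only, take each read as independent and may be too narrow. Past 1.5-fold were 1 of 10 members in Tet3+/+ (13.4% of all genes), 1 of 10 in Tet3 m/m (10.1%) and 7 of 10 in Tet3-/- (21.5%).

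In Tet3-/- the library with Tet3-CD was above EV for Mcam (3823 against 1547 normalized counts), Cav1 (142 against 24.1), Cav2 (115 against 36.1) and Eng (895 against 456). It was below EV for Flt1 (1336 against 2641), Pecam1 (234 against 358) and Cdh5 (94.5 against 579). The log2 ratios ran from 2.51 for Cav1 (counting interval 1.93 to 3.25) to -2.60 for Cdh5 (-2.94 to -2.31). The same library pair differed in the summed mural cell list (91157 against 28435 over 12 genes) and the extraembryonic endoderm list (200009 against 314873), and Tet3 itself differed by little, as given above.

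In Tet3 m/m, where the Tet3 count differed most between the vectors, the members hardly differed: 9 of 10 log2 ratios lay between -0.11 and 0.35, and Cdh5 was at 13.2 against 27.9 (-1.03, counting interval -2.12 to -0.13). In Tet3+/+ only Pecam1 was past the threshold, at 92.9 against 169 (-0.86, counting interval -1.25 to -0.48). Whether the effects differ between genotypes was not tested.

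**Figure D5:**
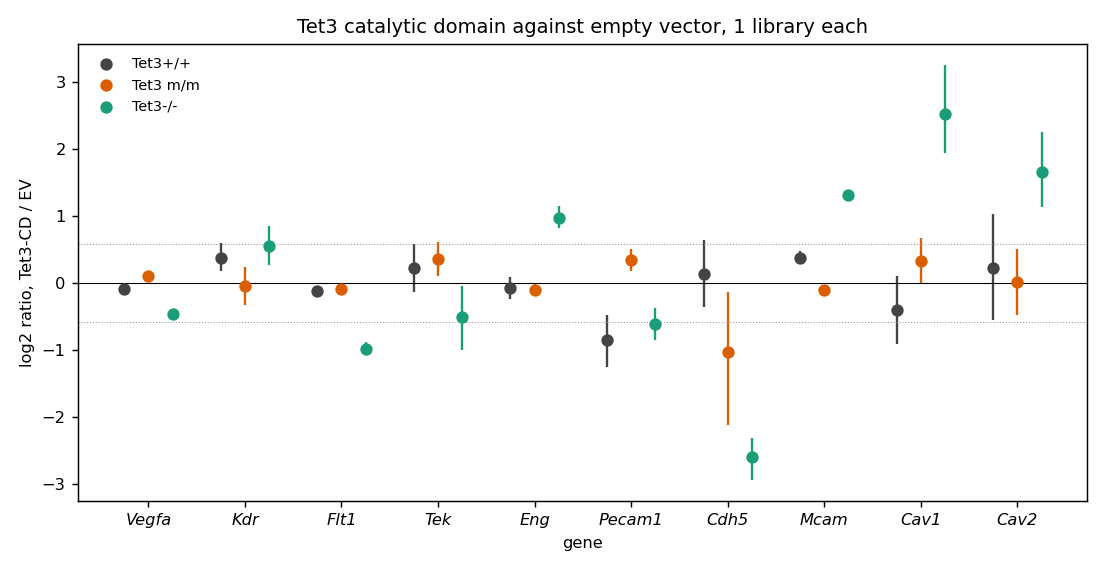
Log2 ratio of the library with Tet3-CD to the library with EV (vertical axis) for the 10 genes in each genotype, with lines for counting intervals and dotted lines at 1.5-fold; each ratio rests on 1 library against 1. The Tet3-/- ratios spread from -2.60 (Cdh5) to 2.51 (Cav1), and those of Tet3+/+ and Tet3 m/m stay mostly inside the dotted lines.

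The EV libraries of this experiment give the genotypes once more, without a test. All 10 members were past 1.5-fold between Tet3 m/m and Tet3+/+, where 36.3% of all genes were. The wild type EV library stood apart in markers of other cell types, with a sum of 1116037 over the 17 extraembryonic endoderm genes against 237704 in Tet3 m/m and 314873 in Tet3-/-, and of 17499 over 11 mesoderm genes against 4916 and 9156. Both lists hold Pdgfra, so these sums are not independent. The part of such cells in the differences of the members was not tested. Eng (2374 against 621), Mcam (5444 against 1770), Pecam1 (513 against 169), Cav2 (67.0 against 27.8), Tek (219 against 129) and Cav1 (125 against 81.2) were higher. Flt1 (2412 against 5953), Cdh5 (27.9 against 68.4), Vegfa (3173 against 5989) and Kdr (205 against 342) were lower.

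Between Tet3-/- and Tet3+/+ with EV, 5 of 10 were past 1.5-fold (27.1% of all genes). Cdh5 (579 against 68.4) and Pecam1 (358 against 169) were higher, and Cav1 (24.1 against 81.2), Kdr (174 against 342) and Flt1 (2641 against 5953) were lower. Cav1, Kdr, Cdh5 and Pecam1 thus stood on the other side of wild type than by the estimates of both replicated experiments, and so by sign did Mcam, which was near wild type (1547 against 1770). In the replicated experiments, however, Kdr overlapped wild type in both (0.32 on day 3 and 0.24 with EV) and Pecam1 overlapped it on day 3 (-0.29).

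Set side by side, the 3 experiments gave the same side of wild type in Tet3 m/m for Tek and Pecam1 by their estimates, and different sides for Vegfa, Kdr, Flt1, Mcam, Cav1, Cav2 and Cdh5. Eng was on the same side by sign, with an estimate near 0 (0.05) with EV in the Dnmt1 experiment. Cdh5 and Vegfa stood on different sides only through small estimates there, without a call (0.07 and 0.14). The estimate of Kdr on day 3 was also near 0 (0.10). In Tet3-/- the sides were alike in all 3 only for Cav2, Tek and Vegfa, of which the day 3 estimate of Tek (-0.07) and the Tet3-CD experiment ratio of Vegfa (-0.02) were near 0. The tables were normalized separately and the cultures differ in vector and clone, and by the methods the Tet3-CD experiment was also harvested later. These differences between experiments were not tested and cannot be told apart from differences between clones, cultures or times.

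Over the 15 group means, the genes most like the other members were Tsc22d1 and Apaf1 for Cav1 (Pearson r = 0.97 and 0.96), Slc25a24 and Ahnak2 for Cav2 (0.99 for both), Mettl7a1 and Slc39a8 for Kdr (0.95 and 0.93), Fst and Adora1 for Flt1 (0.96 and 0.94), Adgrf5 and Ndrg1 for Cdh5 (0.94 and 0.93), Dcbld1 and Gm14443 for Tek (0.98 for both), Dusp6 and Tbx4 for Eng (0.98 and 0.97) and Stard4 and Pgm1 for Vegfa (0.96 and 0.95). Each is the best of 16812 genes over points that share libraries and a common centring, and is given as a description.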

How the data were processed

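RNA was sequenced in 26 of the 35 samples; the methylation, CUT&Tag and hydroxymethylation samples were not used here. Per the labels' processing notes, the authors trimmed reads with Trim Galore 0.6.7, aligned with STAR 2.7.9a and counted with featureCounts, and the deposited signal values are gene counts divided by DESeq2 size factors, in 1 table for each experiment. The study's methods name the mm39 build and the notes mm10, so gene coordinates are given only for RefSeq promoter windows (GRCm38.p6, 8 of the 10 genes, in 10 windows). Exon lengths and gene order came from GENCODE annotation. Whole reads were recovered from the steps of the values: 100.0% of values in each library lay within 0.01 of a whole read.

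Genes with a mean value of at least 10 were tested with limma 3.58.1 (R 4.3.3) on log2(value + 1), with all samples of a table in 1 fit, so a fold change of a low gene is understated. A gene was called at a Benjamini-Hochberg adjusted p under 0.05 over all genes tested and a change of more than 1.5-fold, and rose or fell refers to called genes. As alternatives on the recovered reads, edgeR 4.0.16 (quasi-likelihood test) and DESeq2 1.42.0 called 1821 and 2312 genes between Tet3 m/m and Tet3+/+ on day 3, against 1836 by limma. The limma, edgeR and DESeq2 fits were tested on simulated data for the comparisons of each mutant genotype with wild type. The Dnmt1 effects, the interactions and the other alternative fits were not simulated. The simulated spread was set by a rule and not taken from these samples. The p-values measure the spread between these samples, which in the Dnmt1 experiment may be technical. The EV Tet3+/+ columns of that experiment share 1 header and are called its first and second column. Where a result is from single libraries, the 95% counting intervals cover counting error only and take each recovered read as independent. Recovered reads of low genes were mostly even numbers, as for Cdh5 in the Tet3-CD experiment (64, 76, 30, 14, 578 and 100). The reads may thus not be independent, and the intervals may be too narrow.

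The text names the 10 genes, Tet3 and Dnmt1, up to 4 called non-members with the lowest adjusted p from each pathway list in each comparison, and the 2 genes most like each member over the 15 group means; defining markers of cell types are named as a check of the label. The 10 genes and the lists were chosen with earlier results of these data known.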

Additional observations from a re-analysis of the deposited data

Results flagged for a closer look

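A pair of called results were differences between genotypes in the Dnmt1 effect, tested as interactions by limma. The effect in Tet3-/- exceeded that in Tet3+/+ by 0.71 on the log2 scale for Mcam (adjusted p = 0.00555) and by 0.65 for Eng (adjusted p = 0.00143). The Dnmt1 count reached with the vector was also higher in Tet3-/- than in Tet3+/+, and its part in these differences was not tested. The interactions of Pecam1 in Tet3-/- (0.57, adjusted p = 0.00847) and of Flt1 in Tet3 m/m (0.52, adjusted p = 0.0166) passed the adjusted p and stayed under the fold threshold.

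Other values had opposite signs on day 3 and with EV in the Dnmt1 experiment, with the samples of the groups compared not overlapping in either. Between Tet3 m/m and Tet3+/+ these were Flt1 (log2 fold change 1.14 on day 3 and -0.14 with EV) and Vegfa (-0.86 and 0.14). Between Tet3-/- and Tet3+/+ it was Eng (0.96 and -0.85), and between Tet3-/- and Tet3 m/m it was Cdh5 (2.93 and -0.83). Such a separation is common: between Tet3 m/m and Tet3+/+ it held for 36.7% of all genes on day 3 and 72.3% with EV. For Tet3-/- the shares were 41.2% and 77.1% against Tet3+/+ and 41.0% and 82.1% against Tet3 m/m. Flt1 and Vegfa were not called with EV, and Eng in Tet3-/- was not called on day 3. The difference between the experiments was not tested, since their tables were normalized separately.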

How the results depend on the processing

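Of 34 calls of a gene in a comparison, 19 were kept under all alternatives run for them, 15 were lost under at least 1 and 0 changed sign. Of 110 log2 fold changes of the 10 genes, 25 changed sign under at least 1 alternative. The number of the 10 genes called moved from 0 to 4 between Tet3-/- and Tet3+/+ on day 3 by DESeq2 and to 2 with the compared groups only. It moved to 2 for Dnmt1 in Tet3 m/m and to 1 for its interaction with no fold threshold, and to 4 for the Tet3-/- interaction by edgeR. Leaving out 1 sample at a time gave 3 to 5 called genes for Tet3 m/m against Tet3+/+, 0 to 2 for Tet3-/- against Tet3+/+ and 2 to 5 for Tet3-/- against Tet3 m/m on day 3. It gave 2 to 4 for Dnmt1 in Tet3-/- and 1 to 3 for its interaction. Over all genes, the calls for Tet3-/- against Tet3+/+ on day 3 numbered 115 by limma, 86 by edgeR, 916 by DESeq2 and 664 with the compared groups only, and 0 to 706 with 1 sample left out. With the compared groups only, 1157 genes in place of 1744 were called for Tet3-/- against Tet3 m/m on day 3, 322 in place of 212 for Dnmt1 in Tet3+/+ and 335 in place of 638 for Dnmt1 in Tet3-/-. Averaged over both vectors, Tet3 m/m against Tet3+/+ turned to 0.12 for Flt1 and -0.18 for Cdh5, and the calls of Eng in Tet3-/- were lost (-0.52 against Tet3+/+ and -0.58 against Tet3 m/m). The cause was not tested for any of these.

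Leaving out 1 sample turned the sign of these estimates, given as the lowest and highest log2 fold change. For Tet3 m/m against Tet3+/+ on day 3 they were Cav2 (-0.20 to 0.71) and Kdr (-0.06 to 0.39), for Tet3-/- against Tet3+/+ Flt1 (-0.12 to 0.47), Pecam1 (-0.63 to 0.05) and Tek (-0.59 to 0.45), and for Tet3-/- against Tet3 m/m Kdr (-0.04 to 0.49) and Eng (-0.36 to 0.22). For Tet3 m/m against Tet3+/+ with EV they were Cdh5 (-0.18 to 0.32) and Eng (-0.01 to 0.11). For Dnmt1 against EV they were Mcam (-0.19 to 0.16), Cav2 (-0.52 to 0.19), Pecam1 (-0.01 to 0.17) and Tek (-0.05 to 0.11) in Tet3+/+, Cav1 (-0.16 to 0.81), Cav2 (-1.45 to 0.56), Cdh5 (-0.48 to 0.02) and Tek (-0.03 to 0.06) in Tet3 m/m, and Kdr (-0.46 to 0.04) and Tek (-0.17 to 0.13) in Tet3-/-. For the interactions they were Cav2 (-1.29 to 0.73), Tek (-0.10 to 0.06) and Eng (-0.05 to 0.08) in Tet3 m/m, and Kdr (-0.17 to 0.33) and Tek (-0.21 to 0.10) in Tet3-/-.

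Samples with the same replicate number did not deviate together (correlations of -0.10 to 0.08 on day 3 and -0.05 to 0.03 in the Dnmt1 experiment). In the Dnmt1 experiment both replicate numbers give the same correlation by construction. The main fits used no pairing, and whether same-numbered samples shared a culture was not tested. With a replicate block, 1893 genes in place of 1836 were called for Tet3 m/m against Tet3+/+ on day 3, 98 in place of 115 for Tet3-/- against Tet3+/+ and 1521 in place of 1744 for Tet3-/- against Tet3 m/m, and Tek between Tet3-/- and Tet3+/+ turned to 0.10. A block over the numbered Tet3 m/m and Tet3-/- samples of the Dnmt1 experiment gave 357 genes for Dnmt1 in Tet3 m/m and 500 in Tet3-/-, in place of 385 and 540 in a fit of the same samples without the block, a reference chosen after seeing the data, and an adjusted p of 0.0524 for Cav1 in Tet3-/-. Cav1 and Cav2 rest on few reads in Tet3+/+ and Tet3 m/m with EV, which limits the precision of their differences.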
